A study of Mus musculus with 6 samples.

Results

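Cytosolic ribosomal protein genes were followed in a mouse line of bone-forming precursors, the 2T3 pre-osteoblasts, kept static or exposed to simulated microgravity. Members were the array probes with 1 gene symbol that began with Rpl or Rps and named a ribosomal protein, which left out the ribosomal S6 kinases. The rule gave 59 genes of the 8841 genes with 1 symbol, 39 of the large subunit and 20 of the small subunit, each measured by 1 probe. All 59 entered the test, which covered 8586 genes. Cells in both groups grew in Opticells, which are closed culture cassettes. The static group was the control, and the simulated microgravity group was moved on a Random Positioning Machine, which keeps turning the culture so that gravity has no fixed direction. Each group had 3 samples with 1 array per sample, here named static 1 to 3 and microgravity 1 to 3. The labels do not state the time on the machine. Nothing in the labels shows whether the samples of a group were separate cultures, so a p-value here measures the spread between these 6 samples alone, and that spread may be technical.

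Ribosomal proteins assemble with ribosomal RNA into the large and small subunits of the ribosome, and their genes are transcribed strongly in growing cells. Their mRNAs typically begin at a cytosine and carry a run of pyrimidines at the 5′ end, the terminal oligopyrimidine (TOP) tract, through which the kinase mTOR controls their translation. An array measures mRNA level and not translation. In osteoblasts the demand for ribosomes accompanies growth and the synthesis of bone matrix proteins. Fewer cells of a type and less RNA per cell cannot be told apart in RNA from a whole culture.

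The TOP tract was looked for at the start sites annotated by RefSeq, in promoter windows of 300 bases (250 before and 50 after the start, mouse build GRCm38.p6). A window was found for 49 of the 59 members. A run of at least 6 C or T letters covered the annotated start in 14 of 49 members (28.6%), against 8.48% of the 7056 array genes with a window and 8.48% of all 27025 genes of the RefSeq table. A run of at least 8 such letters lay within 50 bases of the start in 41 of 49 members (83.7%), against 38.2% of the array genes. The following 40-base stretches take 20 bases on each side of the boundary at the start. All were taken from members with a run over the start, and their genes are described further on. They cover the gene with the smallest p (Rpl28), a stalk protein and the substrate of the S6 kinases (Rplp2, Rps6), a common reference gene (Rps18), and a pair that was low on both arrays numbered 2 (Rpl27a, Rpl38). Capitals mark the pyrimidine run over the start, and each sequence reads 5′ to 3′ on the strand of the gene.
Rpl28: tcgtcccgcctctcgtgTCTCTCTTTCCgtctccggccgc
Rplp2: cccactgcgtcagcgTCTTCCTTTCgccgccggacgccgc
Rps6: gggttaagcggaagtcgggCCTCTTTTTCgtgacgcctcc
Rps18: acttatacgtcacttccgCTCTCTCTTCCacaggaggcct
Rpl27a: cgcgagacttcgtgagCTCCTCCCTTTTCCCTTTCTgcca
Rpl38: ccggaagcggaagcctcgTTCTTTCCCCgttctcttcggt
In GRCm38.p6 they lie at chr7:4792945-4792984 on the plus strand (Rpl28), chr7:141447631-141447670 on the plus strand (Rplp2) and chr4:86857348-86857387 on the minus strand (Rps6). The others lie at chr17:33955646-33955685 on the minus strand (Rps18), chr7:109519175-109519214 on the plus strand (Rpl27a) and chr11:114668560-114668599 on the plus strand (Rpl38). Runs over the start were 10 letters long in Rplp2, Rps6 and Rpl38, 11 in Rpl28 and Rps18, and 20 in Rpl27a. Other genes described further on had no such run, among them Rplp0, Rpl5, Rpl11 and Rpl26.

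Short motifs were searched for on both strands of the same 300-base windows. CCGGAAG, a core bound by ETS factors, was present in 21 of 49 members (42.9%), against 15.4% of the array genes and 9.93% of all genes of the table. CACGTG, the E-box bound by Myc and Max, was present in 10.2% of members and 11.5% of the array genes. GGGCGG, the GC box, was present in 63.3% and 61.2%, and AAGATGGC, a YY1 motif, in 4.08% and 4.08%. Members and array genes had a similar base composition in these windows, with median GC contents of 58.3% and 59.3%. A match describes the letters of the window and is no measured binding site.

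Arrays carried 10337 to 10432 values each, and values are given as signal, the deposited intensity divided by the array's median. A signal cannot be read as an mRNA level relative to another gene's, because probes bind with different strength. Ribosomal protein genes also have many processed copies in the genome, and signal from such copies on the same probe was not tested. Both arrays numbered 2 stood apart in the lower part of the intensity range: 9.16% of values on static 2 and 6.44% on microgravity 2 lay at the floor of 0.1 times the median, against 17.1% to 19.8% on the other arrays. Of 12 osteoblast markers 8 were measured and 5 lay above the median on every array (Col1a1, Col1a2, Omd, Postn and Sparc). Alpl, Pth1r and Ibsp did not, with lowest signals of 0.518, 0.967 and 0.154. The summed signal of the measured markers was 395 to 520.0 on the static arrays and 212 to 273 on the microgravity arrays. Sparc was the brightest of them, with means of 201 static and 137 microgravity. The defining markers Runx2, Sp7, Bglap and Spp1 were not analysed here, for lack of a probe with that single symbol. In the lists for other cell types, 2 of 3 measured adipocyte markers (Lpl and Fabp4) and 2 of 3 macrophage and blood markers (Lyz2 and Cd14) lay above the median on every array. The summed signals of the measured markers were 39.6 to 46.8 static and 33.4 to 38.8 microgravity for adipocytes, and 13.8 to 17.5 and 9.87 to 16.4 for macrophages and blood. The remaining measured markers of these lists, Adipoq and Ptprc, reached no more than 0.152 on any array. For skeletal muscle, chondrocytes, and endothelium and epithelium the count was 0 of 4, 0 of 3 and 0 of 5. The part of these markers in the results was not tested.

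Ribosomal protein genes had slightly higher values in simulated microgravity, but 0 of 59 passed the test. The median log2 change was 0.28, a ratio of 1.22, with 57 genes higher and 2 lower. The range ran from -0.27 (Rpl37a) to 0.96 (Rpl26). The large subunit (median 0.29, 38 of 39 higher) and the small subunit (median 0.28, 19 of 20 higher) had similar medians. By limma, with Benjamini-Hochberg adjustment over all probes, the smallest adjusted p among members was 0.322 and 2 members (3.39%) had an unadjusted p under 0.05. Over all genes tested that share was 11.5%, and over the other bright genes 21.4%. The background was 28 of 10146 probes called (0.276%), a count that was 0 whenever any 1 of the 6 arrays was left out. Over all genes tested the median log2 change was 0.05 with 56.5% higher. Among the 1195 other genes with a mean signal above 10, a range that holds most members, it was 0.08 with 60.2% higher.

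**Figure D1:**
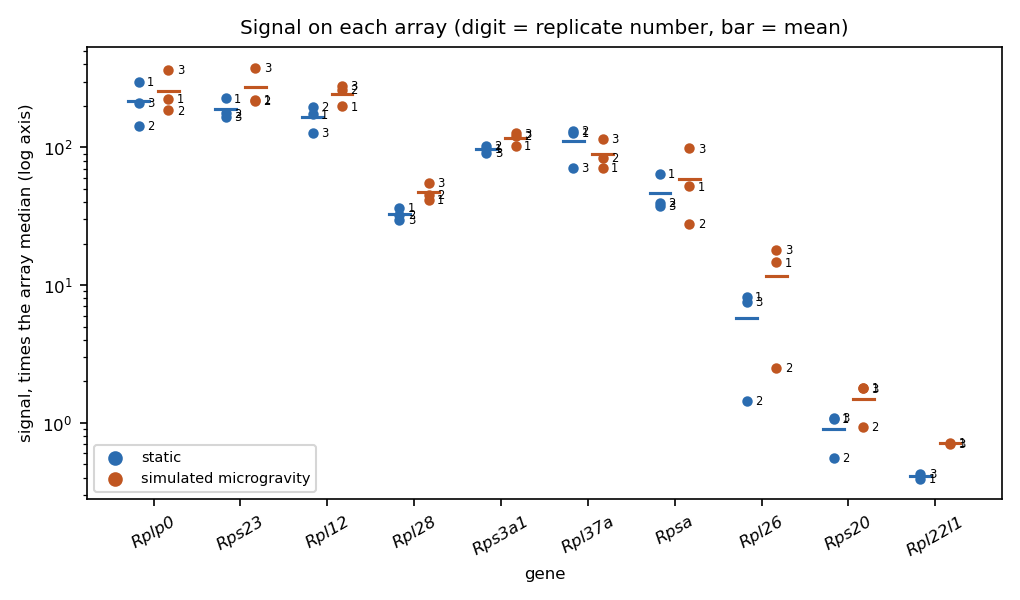
Signal of 10 ribosomal protein genes on each array, as multiples of the array median on a logarithmic axis, with static arrays in blue, microgravity arrays in orange, 1 point per array marked with its replicate number and a bar at the group mean. The groups were apart for Rpl12, Rpl28 and Rpl22l1 (2 arrays per group) and overlapped for the others. Number 2 was the lowest of its group in both groups for Rplp0, Rpl26 and Rps20.

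Microgravity 3 carried much of this difference. Measured from each gene's mean over the 6 arrays, the median of 57 members with all values was 0.06, -0.25 and -0.31 (log2) on static 1, 2 and 3. It was -0.01, -0.09 and 0.48 on microgravity 1, 2 and 3, so static 1, microgravity 1 and microgravity 2 lay close together. On microgravity 3, 56 of 57 members were above their own mean, against 34 on static 1, 27 on microgravity 1 and 24 on microgravity 2. Microgravity 3 was the highest array for 48 of 57 members (84.2%) and for 36.1% of the 1173 other bright genes with all values, whose median there was 0.17.

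Without microgravity 3 the median log2 change of the members was 0.11, with 43 genes higher. Without microgravity 2 it was 0.42, and over the other single arrays left out it was 0.24 to 0.38. Without microgravity 3 the sign of the log2 change turned in 12 members, Rpl3, Rpl4, Rpl8, Rpl10, Rpl13a, Rpl15, Rpl19, Rpl27a, Rpl38, Rplp0, Rps15 and Rpsa (-0.26 to -0.03). Without static 2 it turned in 7, Rpl4, Rpl8, Rpl13a, Rpl27a, Rpl29, Rpl38 and Rplp0 (-0.27 to -0.02). Without static 3 it turned in 4 (Rpl10, Rpl15, Rpl36a and Rps15), without microgravity 1 in 2 (Rps28 at 0.02 and Rpl38 at -0.05), and without static 1 in 1 (Rps28 at 0.07). After quantile normalization the members' median was 0.24 with 53 genes higher, and after cyclic loess normalization 0.19 with 55 higher. Under quantile normalization the members' median deviations were -0.03, -0.24 and -0.09 on the static arrays and 0.20, -0.07 and 0.19 on the microgravity arrays. There microgravity 1 stood as high as microgravity 3. Microgravity 3 was the highest array for 20 of 57 members (35.1%), against 17.2% of the other bright genes. After cyclic loess normalization these shares were 45.6% and 18.7%.

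**Figure D2:**
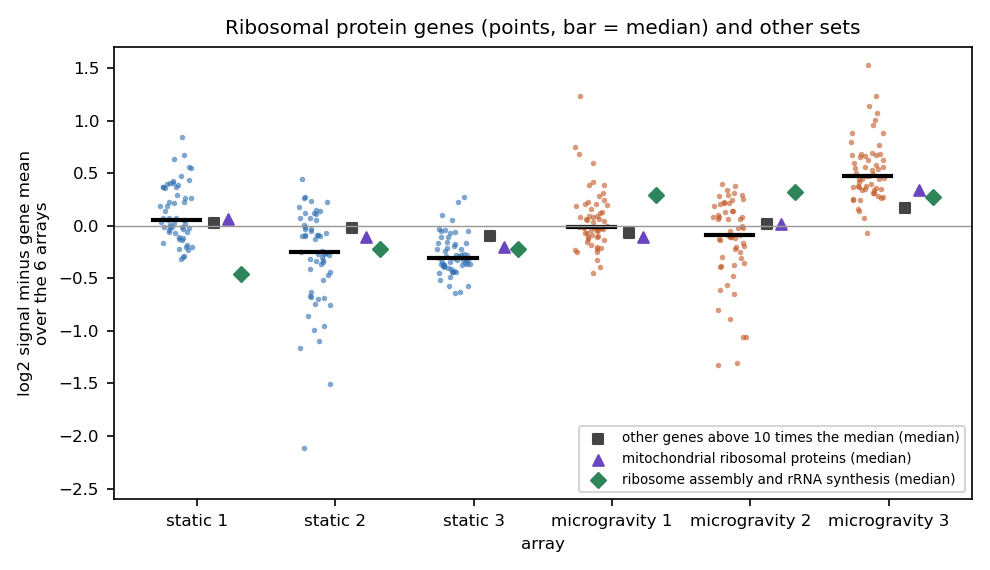
Log2 deviation from the gene mean on each array, with a point per ribosomal protein gene and a bar at their median, beside the medians of other genes with a mean signal above 10 (squares), mitochondrial ribosomal proteins (triangles) and ribosome assembly genes (diamonds). The median of the ribosomal protein genes was 0.48 on microgravity 3 and between -0.31 and 0.06 on the other 5 arrays.

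Pairs of single arrays were also compared. Of the 9 pairs of a microgravity and a static array, 7 had a median ratio above 1 (1.12 to 1.72) and 2 below. Microgravity 3 over static 3 gave a median ratio of 1.72, with 58 members higher and 0 lower. Microgravity 1 over static 1 gave 0.984, with 27 higher and 31 lower, and microgravity 2 over static 1 gave 0.898, with 22 higher and 35 lower. Both pairs below 1 were against static 1, the highest static array for these genes. Over the other bright genes, microgravity 3 over static 3 gave a median ratio of 1.19, with 69.3% higher. For those genes microgravity 1 over static 1 gave 0.935 (43.0% higher), and microgravity 2 over static 1 gave 0.990 (48.9% higher).

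**Figure D3:**
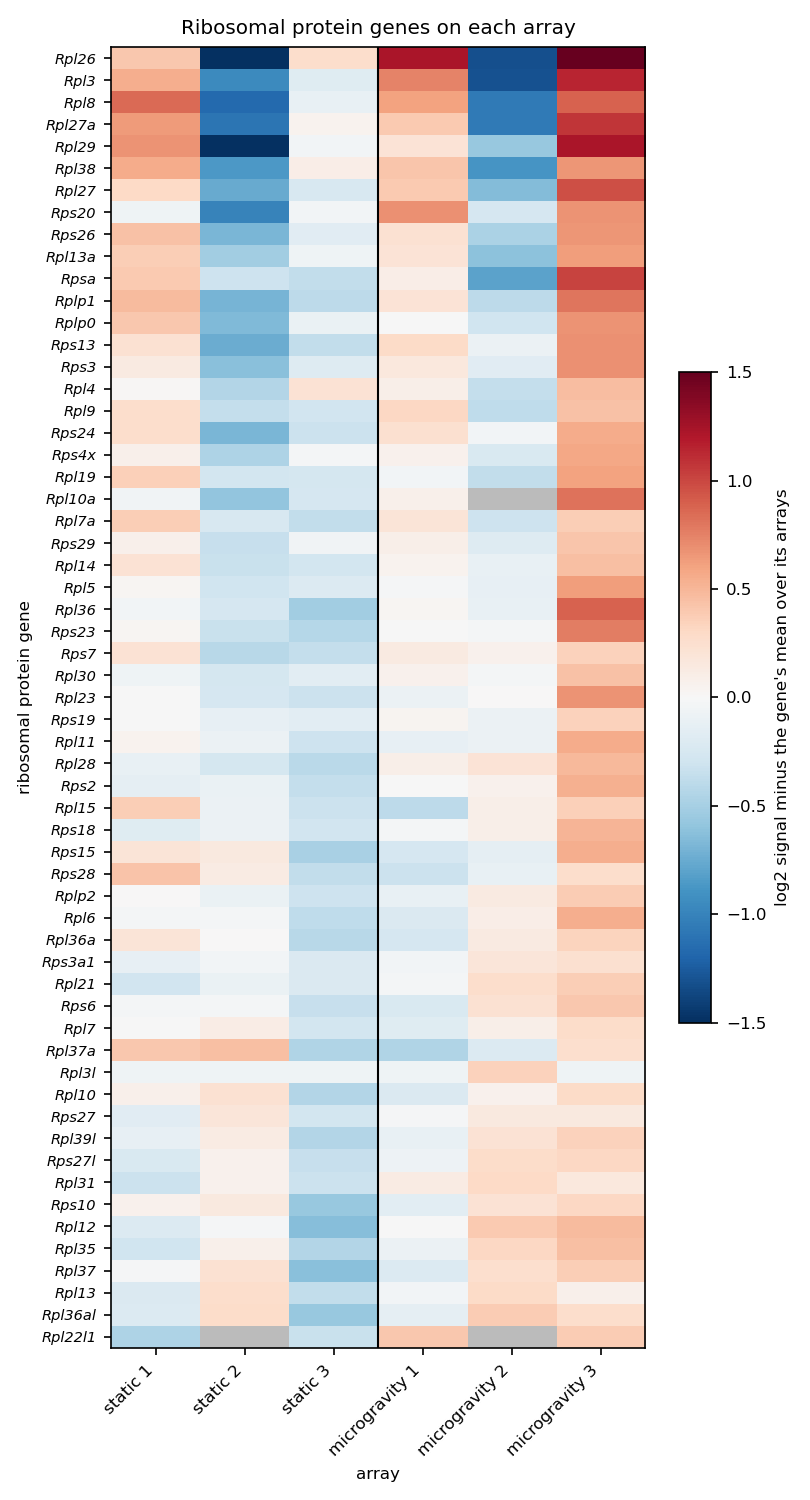
Log2 deviation of each ribosomal protein gene from its own mean on each of the 6 arrays, with genes as horizontal bands ordered by their level on the number 2 arrays and arrays as columns, where grey marks an empty value and the colour scale ends at 1.5 in each direction. Microgravity 3 was above the gene mean for 56 of 57 members with all values, and a group of genes was low on static 2 and microgravity 2.

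Spread within groups was compared with the difference between them. The median pooled standard deviation (SD) of the members was 0.35 on the log2 scale, with a range of 0.06 to 1.49, against 0.29 over all genes and 0.24 over the other bright genes. The difference between groups was larger than this SD in 25 of 59 members (42.4%), in 32.6% of all genes and in 46.4% of the other bright genes. Group accounted for a median of 20.6% of a member's variation over the arrays, against 16.1% over all genes and 23.6% over the other bright genes. The highest array exceeded the lowest by a median of 1.86-fold in the members. The range was 1.37-fold to 12.5-fold in 58 members, leaving out Rpl3l, which lay at the floor on 5 of 6 arrays.

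**Figure D4:**
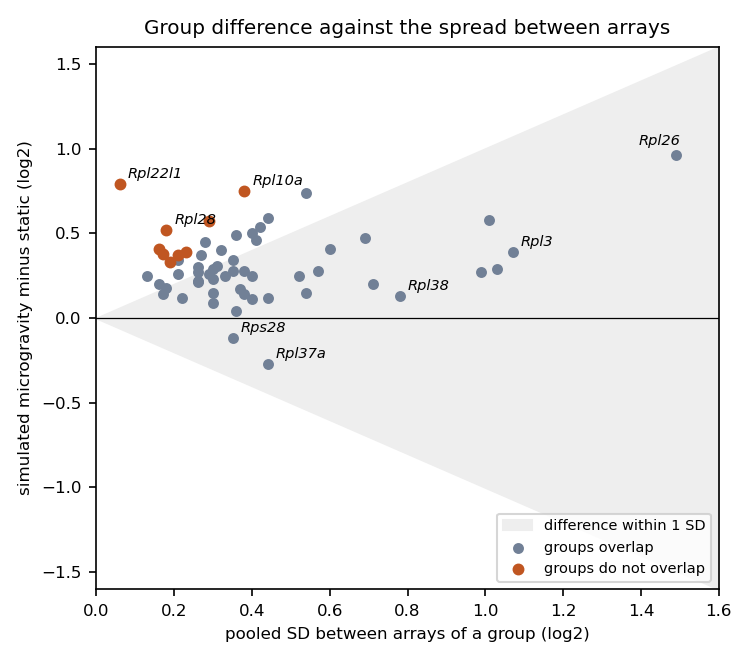
Difference between groups (log2, simulated microgravity over static) against the pooled within-group SD (log2) for each ribosomal protein gene, with orange points where the groups did not overlap and grey shading where the difference was within 1 SD. The difference exceeded the SD in 25 of 59 genes, and Rpl26 had the largest value on both axes.

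The groups did not overlap in 9 of 59 members (15.3%), each time with the microgravity arrays higher, and in 0 members with them lower. Over all genes the shares were 8.51% higher and 8.07% lower. Leaving out 1 array also makes it easier for any gene's groups to be apart. Without microgravity 3 the count was 7 (12.3%), against 13.7% of all genes. Without static 1 it was 19 (32.8%), against 12.4%, and without microgravity 2 it was 19 (32.8%), against 12.6%. With quantile normalization it was 14 (23.7%), against 8.05%. With both arrays numbered 2 left out, which was chosen after seeing the data, it was 26 of 58 members (44.8%), against 19.8% of all genes then compared. The 9 genes were Rpl12, Rpl21, Rpl22l1, Rpl28, Rpl31 and Rps18, with Rpl10a, Rpl30 and Rps2, the last group named after their values were seen. Rpl22l1 had no value on static 2 and microgravity 2, and Rpl10a had none on microgravity 2. Fewer arrays had to be apart in these genes. Rpl10a had 168, 115 and 146 on the static arrays and 184 and 307 on microgravity 1 and 3.

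Rpl28, a large-subunit protein, had the smallest p. Its signal was 36.3, 32.5 and 29.6 on static 1, 2 and 3 and 41.4, 45 and 55.0 on microgravity 1, 2 and 3. Every microgravity array was above every static array, but the difference did not pass the test. The mean went from 32.8 ± 3.37 (SD, n = 3) to 47.2 ± 7.05, a ratio of 1.43 (log2 change 0.52, SE 0.17, limma adjusted p = 0.322). Rpl12, which lies at the base of the stalk, had 173, 197 and 128 on the static arrays and 198, 262 and 277 on the microgravity arrays. Its lowest microgravity value was just above its highest static value, and the log2 change was 0.57 (SE 0.25, limma adjusted p = 0.488).

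Rpl31, a protein near the exit of the peptide tunnel, had 36.6, 48.0 and 36.5 on the static arrays and 49.7, 56.1 and 51.1 on the microgravity arrays. Static 2 was the high static array and came within a small margin of the microgravity arrays (log2 change 0.38, SE 0.17, limma adjusted p = 0.488). Rpl21, a large-subunit protein, had 99.5, 113 and 104 static and 119, 145 and 157 microgravity, so the groups did not overlap. Its log2 change was 0.41 (SE 0.18, limma adjusted p = 0.511). Among members with a mean signal above the array median, the other genes of smallest spread were Rps3a1 and Rps19, both of the small subunit. Rps3a1 had 97.8, 103 and 91.4 static and 103, 121 and 126 microgravity. Rps19, the gene most often mutated in Diamond-Blackfan anaemia, had 132, 122 and 119 static and 137, 125 and 169 microgravity, and its groups overlapped.

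Lower mean log2 values in simulated microgravity were found for Rpl37a and Rps28, neither past the test. Rpl37a, a zinc-binding protein of the large subunit, had 128, 132 and 71.1 on the static arrays and 71.0, 84.0 and 115 on the microgravity arrays. Static 3 and microgravity 1 were equally low, so the groups overlapped (log2 change -0.27, 95% interval -1.0 to 0.47, limma adjusted p = 0.879). Rps28, a small-subunit protein, had 184, 149 and 106 static and 109.6, 127 and 164 microgravity, with the static arrays spanning the microgravity ones (log2 change -0.12, 95% interval -0.76 to 0.53). Rpl15, a core protein of the large subunit, had 189, 138 and 117 static and 112, 156 and 188 microgravity. Its values were nearly the same in both groups, with a log2 change of 0.04 (95% interval -0.63 to 0.70) whose sign turned after quantile or cyclic loess normalization.

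The stalk of the large subunit, which recruits elongation factors, is built from Rplp0, Rplp1 and Rplp2, and 3 of 3 had higher mean log2 values with 0 called (median 0.26). Rplp0, the stalk base, had the brightest probe of the members, with 299, 143 and 211 on the static arrays and 225, 185 and 362 on the microgravity arrays. Static 1 was above both microgravity 1 and microgravity 2. The mean went from 218 ± 78.3 to 257 ± 92.7 (SD, n = 3), a log2 change of 0.25 (SE 0.37, 95% interval -0.63 to 1.12, limma adjusted p = 0.910). Rplp1 had 4.87, 2.16 and 2.67 static and 4.04, 2.67 and 6.09 microgravity. Rplp2 had 116, 108 and 93.2 static and 107, 127 and 150.3 microgravity. In both, microgravity 3 was the highest array and the groups overlapped.

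Rpl5 and Rpl11 bind 5S ribosomal RNA and, outside the ribosome, the p53 regulator Mdm2. Rpl5 had 195, 155 and 165 static and 188, 175 and 294 microgravity, and Rpl11 had 139, 126 and 108 static and 123, 126 and 197 microgravity. Only microgravity 3 lay above the static range in these genes. The log2 changes were 0.31 (95% interval -0.30 to 0.93) for Rpl5 and 0.23 (95% interval -0.36 to 0.81) for Rpl11.

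Among 8 measured proteins that line the mRNA channel of the small subunit or contact initiation factors, 7 had higher and 1 (Rps28) lower mean log2 values, 0 were called and the median log2 change was 0.27. Rps6, the substrate of the S6 kinases, had 152, 151 and 122 static and 132, 181 and 204 microgravity, with microgravity 1 inside the static range. Its log2 change was 0.27 (SE 0.23, limma adjusted p = 0.857). Rps3, which lies at the entry of the channel, had 67.9, 39.8 and 54.1 static and 69.1, 55.0 and 99.2 microgravity. Rps23, which lies at the decoding centre, had 226, 176 and 165 static and 220.4, 218 and 379 microgravity, with static 1 above microgravity 1 and 2. Rpsa, also known as the laminin receptor, had 63.7, 39.2 and 37.6 static and 52.0, 27.9 and 98.0 microgravity. Its lowest and highest values were both microgravity arrays, a 3.51-fold span. Rps2, named after its values were seen, had 163, 167 and 139 static and 178, 187 and 258 microgravity, with no overlap (log2 change 0.39, SE 0.22, limma adjusted p = 0.659).

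Mutations in 15 of the measured genes are known in Diamond-Blackfan anaemia, an inherited failure of red cell production. Of these 15, 14 had higher and 1 lower mean log2 values, with a median of 0.28, and 0 were called. Rpl31 was the 1 gene of this list whose groups did not overlap, and 8.51% of all genes were apart and higher. The members with the smallest p after Rpl31 were Rpl35 (log2 change 0.45, SE 0.24), Rps7 (0.37, SE 0.21) and Rps24 (0.50, SE 0.28). Rpl10, which lies next to the peptidyl transferase centre, was among the brightest probes, with 222, 248 and 156 static and 181, 221 and 257 microgravity. Its log2 change of 0.09 was small beside its spread and took a value of -0.12 under quantile normalization.

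Paralogues of the standard proteins were measured by 5 probes. Rps27l, which p53 induces, had 41.8, 51.2 and 38.8 static and 46.7, 59.7 and 60.9 microgravity. Rpl36al had 58.5, 81.5 and 45.4 static and 61.5, 87.5 and 80.9 microgravity, and Rpl39l, known from testis, had 4.69, 5.58 and 3.76 static and 4.75, 5.93 and 6.48 microgravity. In these 3 genes the log2 changes were 0.30 to 0.34, and the groups overlapped. Rpl22l1 had 0.393 and 0.429 on static 1 and 3 and 0.715 and 0.703 on microgravity 1 and 3, with no value on either array numbered 2. The groups did not overlap in these 2 arrays each (log2 change 0.79, SE 0.28, limma adjusted p = 0.421). Rpl3l, the striated-muscle form of Rpl3, was below the floor of 0.1 on every array but microgravity 2, where it was 0.133, and no fold is given. Skeletal muscle markers were also below the median on every array.

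A second pattern ran across groups and followed the arrays numbered 2. In 6 of 57 members (10.5%) the signal on number 2 was at least 2-fold lower than the mean of numbers 1 and 3 in both groups, against 1.73% of 8415 genes. All 6 were large-subunit genes (Rpl3, Rpl8, Rpl26, Rpl27a, Rpl29 and Rpl38) and 0 were small-subunit genes. The large subunit made up 37 of the 57 members compared, and 2 small-subunit genes lay just outside the 2-fold limit. Rpl27a and Rpl38 are named after their values were seen. The number 2 arrays were lower in both groups for 30 of 57 members, for 2135 of 8415 genes and for 370 of 1173 other bright genes. They were higher in both groups for 17 members, a count not made for other genes. Across the 57 members the differences of number 2 from the other arrays had a Pearson correlation of 0.91 between the static and the microgravity group. It was 0.63 over the other bright genes and 0.46 over all genes. Genes are not independent replicates, and they share the arrays and their scaling, so these are descriptions.

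**Figure D5:**
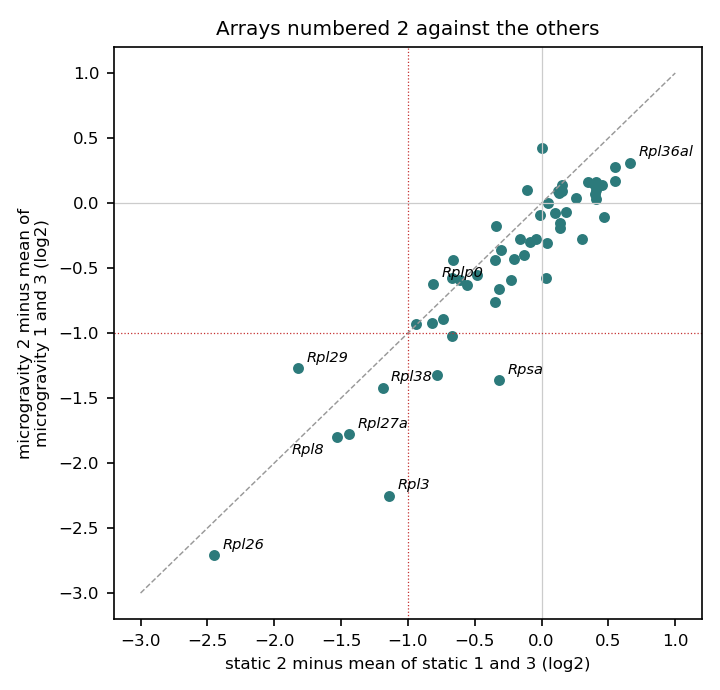
Log2 difference of static 2 from the mean of static 1 and 3 (horizontal axis) against the same difference for microgravity 2 (vertical axis), 1 point per ribosomal protein gene. Rpl26 lay lowest on both axes, at -2.45 and -2.71, and the dotted lines mark a 2-fold lower value on each axis, past which 6 labelled genes lay on both.

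Rpl26, a large-subunit protein, varied the most. Its signal was 8.23, 1.44 and 7.50 on static 1, 2 and 3 and 14.6, 2.49 and 18 on microgravity 1, 2 and 3. The number 2 arrays were at 0.183 and 0.153 of the other arrays of their group, a larger step than that between the groups (log2 change 0.96, 95% interval -1.28 to 3.20, limma adjusted p = 0.857). Rpl3, which reaches towards the peptidyl transferase centre, had 93.5, 33.0 and 56.5 static and 107, 25.8 and 141 microgravity. Rpl8, another core protein of the large subunit, had 82.6, 20.5 and 42.6 static and 69.7, 22.1 and 84.9 microgravity. In both genes the number 2 array was the lowest of its group and the groups overlapped.

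Rpl27a had 60.4, 18.2 and 40.4 static and 50.8, 18.7 and 81.5 microgravity. Rpl38, which is known for a role in translating Hox mRNAs, had 70.5, 26.4 and 51.4 static and 64.0, 25.9 and 75.5 microgravity. The number 2 values of these genes nearly coincided between the groups. Rpl29, one of the dimmest members, had 2.46, 0.543 and 1.5 static and 1.77, 1.04 and 3.61 microgravity. Just inside the 2-fold limit were Rpl38 at -1.19 and -1.42 and Rpl3 at -1.14 and -2.25 (log2, static and microgravity). Just outside were Rps20 at -0.94 and -0.93 and Rps26 at -0.82 and -0.92.

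The 6 genes had a median signal of 48.6, against 118 for the other members, and a median log2 change between groups of 0.34, against 0.28. Of the 6, 3 had a promoter window, and a pyrimidine run covered the start in 2 of them. Of the 17 members higher on both number 2 arrays, 15 had a window and 6 had such a run. Rps20, a small-subunit protein, was dim and had 1.07, 0.559 and 1.08 static and 1.79, 0.935 and 1.78 microgravity. Both groups had the same profile over the 3 numbers, with each microgravity value 1.66 to 1.67 times the static value of the same number. Its log2 change of 0.74 (SE 0.38) did not pass (limma adjusted p = 0.603).

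Several members serve as reference genes in expression studies. Of 6 such genes measured, 6 had higher mean log2 values and 0 were called, with a median log2 change of 0.18. The array number accounted for a median of 62.8% of their variation, against 29.9% over the members and 37.1% over all genes. Group accounted for 6.41%, against 20.6% over the members and 16.1% over all genes. The array number has more levels than the group, which makes its share larger by construction, so these shares cannot be set against each other. Rpl13a, a reference gene for quantitative PCR, had 39.3, 21.3 and 29.2 static and 35.2, 20 and 47.0 microgravity, with the number 2 array lowest in both groups. Rpl19 had 238, 153 and 154 static and 180.3, 143 and 281 microgravity, and its log2 change of 0.12 (95% interval -0.64 to 0.89) became -0.07 under quantile normalization. Rps18 had 104, 110.4 and 96.5 static and 115, 125 and 167 microgravity (log2 change 0.37, SE 0.20, limma adjusted p = 0.639). It was the 1 reference gene of this list whose groups did not overlap, and 8.51% of all genes were apart and higher. Among 11 reference genes outside the ribosome, 7 had higher and 4 lower mean log2 values with 0 called. Gusb, a lysosomal enzyme, had the smallest p there, with 3.86, 4.23 and 4.36 static and 2.26, 2.28 and 1.59 microgravity (log2 change -1.04, SE 0.19, limma adjusted p = 0.0969).

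Fau, whose protein product is cut to give a small-subunit protein, was the 1 measured gene of 4 ribosomal proteins with symbols outside the rule. It had 60.9, 42.9 and 47.1 static and 49.9, 45 and 69.3 microgravity, with static 1 and microgravity 3 high as in many members. A list of 20 other measured genes taken as TOP mRNAs, most of the translation machinery, gave 16 higher and 4 lower. Of these 0 were called, and the median log2 change was 0.17. The list also held Vim, Hnrnpa1 and Nap1l1, which are outside that machinery, and Npm1, which the assembly genes below count again. The tract was not looked for in this list. Eef1g, a subunit of elongation factor 1, had 26.5, 22.4 and 23.3 static and 35.1, 34.5 and 40.7 microgravity without overlap (log2 change 0.61, SE 0.15, limma adjusted p = 0.172). Pabpc1, the poly(A)-binding protein, had 81.2, 79.2 and 73.0 static and 94.4, 107 and 125 microgravity (limma adjusted p = 0.383).

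Genes of ribosome assembly and ribosomal RNA synthesis showed a different distribution over the arrays, with intensities divided by the array median. Of 27 measured, 27 had higher mean log2 values, with a median of 0.65, but 0 were called over all probes and 15 (55.6%) had an unadjusted p under 0.05. Their groups did not overlap in 16 of 27, each time with the microgravity arrays higher, against 8.51% of all genes. Their median deviations were -0.46, -0.22 and -0.22 on the static arrays and 0.29, 0.32 and 0.27 on the microgravity arrays. Under this scaling each microgravity array was thus about equally high, whereas the ribosomal protein genes were high on microgravity 3. Under quantile normalization the ribosomal protein genes stood at 0.20 on microgravity 1 and 0.19 on microgravity 3. The per-array medians of the assembly genes were not taken under that scaling. Group accounted for a median of 62.4% of the variation of the assembly genes and 20.6% of that of the ribosomal protein genes. Fbl, the methyltransferase of box C/D particles, had 6.8, 8.60 and 6.84 static and 13.7, 13.1 and 13.6 microgravity (log2 change 0.87, SE 0.14, limma adjusted p = 0.0890). A test of the difference between the lists was not made.

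Of 18 measured genes of mTOR, S6 kinase and Myc control, 9 had higher and 9 lower mean log2 values, with a median of 0.01 and 0 called. Myc, a transcription factor that drives ribosome production, had 11.9, 13.7 and 14.5 static and 18.4, 22.7 and 19.2 microgravity (log2 change 0.59, SE 0.15, limma adjusted p = 0.191). Ddit4, an inhibitor of mTOR, had a log2 change of 0.58 (SE 0.18, limma adjusted p = 0.284). The mitochondrial ribosomal proteins, which build a separate ribosome, had 39 higher and 10 lower of 49, with a median of 0.16 and 0 called. Their per-array medians were 0.06, -0.11 and -0.20 static and -0.11, 0.02 and 0.34 microgravity, again with microgravity 3 highest.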

How the data were processed

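Per the labels, RNA from 3 static and 3 simulated microgravity samples was hybridised to 1 array each. The authors deposited 1 intensity per probe and array on a linear scale. For the correction and scaling of scanner values, the method is not given in the labels or files, and the deposited medians differed little between arrays. Signals are intensities over the median of their array, raised to a floor of 0.1 where lower and then put on the log2 scale, which understates the changes of dim probes. Of 10500 probes, 354 stayed out of the test because they lay at the floor on every array or had under 2 values in a group. A log2 change is the mean log2 signal in simulated microgravity minus that in static cells. Groups were compared with limma 3.58.1 in R 4.3.3 (lmFit, eBayes with intensity trend, 2-sided, Benjamini-Hochberg over 10146 probes, threshold 0.05). The procedure was also run on simulated data. Noise there was drawn independently for each probe, so the run does not cover deviations that genes share on an array. Standard errors (SE) and 95% intervals are from this fit. The number of arrays limits the precision.

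GEO's platform annotation gave 1 symbol for 8983 probes, several for 1 and none for 1516, and all 59 member symbols were found in an NCBI gene table. The rule named the 4 brightest and 4 dimmest members, the 4 with the smallest p, the 3 with the most negative change, the 3 with the largest and 3 with the smallest spread, a set of stalk, 5S and reference proteins, and paralogues. From other lists it named up to 4 genes with the smallest p. Rpl32, Rps27a and Rpl41 of that set were not analysed here, for lack of a probe with that symbol. Rpl22l1 lacked a value on static 2 and microgravity 2, and Rpl10a on microgravity 2. These arrays dropped out of the fit for those genes. Members and gene lists were chosen with earlier results of these data known. Other scalings, floors, variance models, a replicate block and left-out arrays were tried.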

Additional observations from a re-analysis of the deposited data

How the results depend on the processing

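The count of ribosomal protein genes past the threshold was 0 in every alternative run, and their median log2 change was 0.11 to 0.42. With 1 array left out, 43 to 57 members were higher and 7 to 19 did not overlap (12.3% to 32.8%, over all genes 11.3% to 14.5%). That count was 14 with quantile normalization (23.7%, over all genes 8.05%) and 26 without both number 2 arrays (44.8%, over all genes 19.8%), an alternative chosen after seeing the data. Called probes over the whole array moved from 28 to 54 with quantile and 57 with cyclic loess normalization, 53 with the floor at 0.05 and 59 with no floor or with the dimmest 25% left out. They were 115 with array weights, 0 without both number 2 arrays and 0 to 0 with 1 array left out. With the replicate number as a block (replicate block), 0 members and 0 probes were called, and the members' median stayed at 0.28 with 57 higher. Deviations of same-numbered arrays correlated at -0.21, 0.45 and -0.18 over all probes, and at 0.66, 0.91 and 0.43 over the members, for numbers 1, 2 and 3. Over the members, static 1 with microgravity 3 (0.83) and static 3 with microgravity 1 (0.71) correlated more than the same numbers 1 and 3 did. For each gene with all values the deviations of a group sum to 0. A dip shared by the number 2 arrays therefore raises the correlations among numbers 1 and 3, and these values are not separate observations. The labels tie no number to a shared batch. Over all probes the numbers 1 and 3 did not pair the arrays, whereas static 2 correlated most with microgravity 2 (0.45). The reason was not tested.

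Of 568 alternative values for 32 named genes, 24 in 11 genes turned sign, and the cause was not tested. Quantile normalization gave -0.12 for Rpl10, -0.04 for Rpl15 and -0.07 for Rpl19, and cyclic loess -0.01 for Rpl10 and -0.06 for Rpl15. Rpl15 was -0.07 with array weights and -0.03 without both number 2 arrays, and Rpl3l was -0.05 with no floor. With 1 array left out the ranges were -0.11 to 0.22 for Rpl10, -0.13 to 0.24 for Rpl15, -0.15 to 0.34 for Rpl19, -0.33 to 0.07 for Rps28 and -0.13 to 0.49 for Rpl13a. They were -0.03 to 1.06 for Rpl29, -0.22 to 0.89 for Rpl8, -0.03 to 0.51 for Rplp0, -0.08 to 1.14 for Rpl3 and -0.26 to 0.65 for Rpsa. Averaging the probes of a gene was not run, because each member had 1 probe. No detection calls were used, so dim members such as Rpl3l, Rpl22l1 and Rps20 may lie near background.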
